A study of Rattus norvegicus with 16 samples.

Results

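The effect of exercise training in old rats was examined as a single contrast: 4 hippocampal libraries from old trained rats against 4 from old sedentary rats, 8 of the 16 libraries of the study. The libraries were taken by their labels and all genes of the count table were used. Of 32754 Ensembl gene IDs, 15035 had enough counts to be tested.

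The animals of both groups were wild-type male Fischer-344 rats, an inbred strain used in research on aging, and were 20 months old. They were randomized either to an exercise training program or to a sedentary control condition, each lasting 10 weeks. Behavioral tests followed, and the hippocampus was collected 2 days after the last of them. Each library came from 1 rat, and bulk tissue was used. Young rats of 6 months went through the same conditions (4 trained, 4 sedentary) and enter here through the shared estimate of each gene's spread and as libraries outside the contrast. All groups were of 1 sex and 1 strain.

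The hippocampus forms new memories and maps space, and it holds the dentate gyrus, where new neurons are still made in adult rodents. Physical activity is known to raise neuronal activity, local blood flow and the supply of growth factors there, and these responses are studied for their decline with age. In bulk tissue, a lower level of a transcript can come from fewer cells of a type or from less RNA per cell, and these cannot be told apart.

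The count table gives IDs without symbols or positions, and 0 of the IDs matched the reference gene table used here. The functions of the genes that differed, and the level of hippocampal marker genes, were therefore not analysed here, and no sequence is shown. Genes are described by level, size of change and behavior in each library, with 2 rises and 2 falls given by ID.

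Total counts were 10682644, 11425389, 10789527 and 11198233 in old sedentary replicates 1 to 4 and 8630396, 12555333, 13949316 and 13117914 in old trained replicates 1 to 4. The groups overlapped in depth (exact permutation p = 0.486, 2-sided, n = 4 per group). Reduced to a common depth of 8630396 counts, the old sedentary libraries held between 18372 and 18539 genes with at least 1 count and the old trained libraries between 18120 and 18303. The groups did not overlap, with means of 18490 ± 79 (SD, n = 4) and 18178 ± 84 (SD, n = 4). No arrangement of 4 against 4 can give a p below this one (exact permutation p = 0.0286), and after adjustment over 3 library measures the difference did not pass (adjusted p = 0.0858). It could not have passed unless another measure also reached that lowest p, so the adjusted result decides nothing here. The 100 most abundant genes took 22.0% ± 0.427 (SD, n = 4) of the counts in the old sedentary group. In the old trained group they took 21.6% ± 0.465 (SD, n = 4) (exact permutation p = 0.286).

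One old sedentary library stood apart from its group. The difference between 2 libraries was measured as the root mean square of their log2 CPM differences over the 15035 genes (CPM is counts scaled to a common library size). Old sedentary replicates 1, 2 and 4 were nearest to another old sedentary library and lay at 0.676 to 0.802 from every old trained library. Their distances to the young sedentary libraries were 0.414 to 0.619, 0.389 to 0.583 and 0.486 to 0.661. Replicates 1 and 2 were also closer to young sedentary replicate 2 (0.414 and 0.389) than to old sedentary replicate 4 (0.445 and 0.429). Old sedentary replicate 3 lay at 0.506 to 0.546 from the other old sedentary libraries, at 0.41 to 0.534 from the old trained libraries and at 0.318 to 0.386 from the young sedentary libraries. Its nearest library was young sedentary replicate 4. Old trained libraries lay at 0.31 to 0.405 from each other. Results that this library moved are also given without it.

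**Figure D1:**
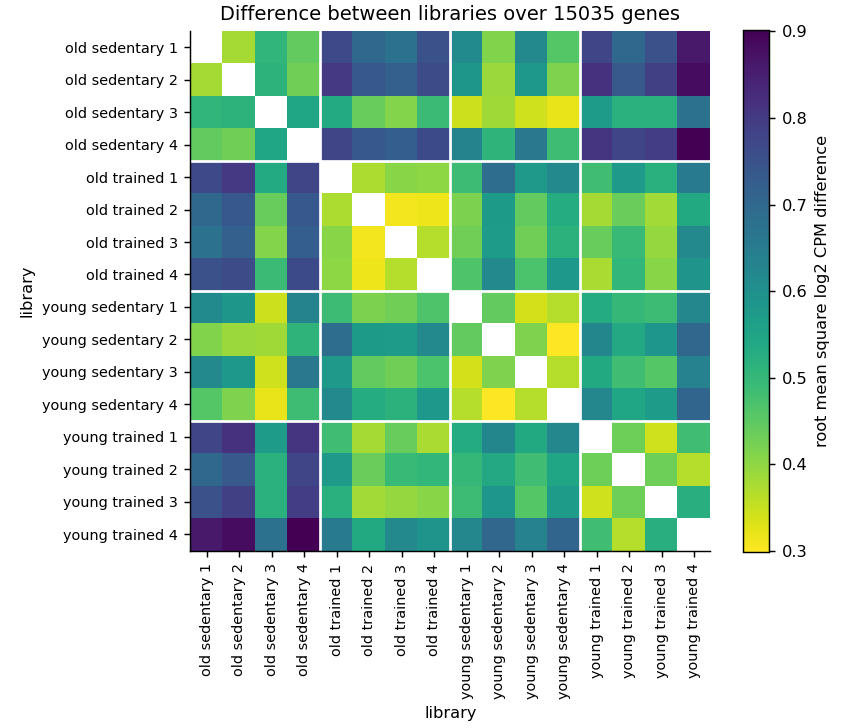
Root mean square log2 CPM difference between every pair of the 16 libraries over the genes tested, with libraries on both axes and the color scale in log2 units. Old sedentary replicate 3 is closer to the young sedentary libraries (0.318 to 0.386) than to the other libraries of its own group (0.506 to 0.546).

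Training in old rats was associated with differences in many genes of small size and in fewer genes of large size, the latter mostly falls. edgeR's quasi-likelihood test called 3618 genes at an adjusted p below 0.05, 24.1% of those tested. Of these, 1729 were higher in old trained rats (11.5%) and 1889 lower (12.6%). The median log2 fold change was 0.515 among the genes called higher, with quartiles of 0.345 and 0.832, and -0.753 among those called lower, with quartiles of -1.41 and -0.455. The median standard error of a called change was 0.152. With libraries scaled by total counts alone, 3716 genes were called and the share that was higher went from 47.8% to 34.6%.

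At larger sizes the falls outnumbered the rises. Rises of at least 2-fold were called in 313 genes and falls of that size in 732. At 4-fold and above there were 27 rises and 263 falls, and at 8-fold and above 5 rises and 85 falls. With limma voom the rises of 4-fold and above numbered 78 and 65, with quality weights per library and per group. The excess of falls at 2-fold and above was present under all 9 fits in which sizes were counted. Without old sedentary replicate 3 the 2-fold counts were 554 higher and 874 lower, the 4-fold counts 138 and 326, and the 8-fold counts 40 and 109, so that library bore most on the large rises.

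Rises and falls lay at different levels of abundance. The tested genes were divided by mean level into 4 bands of equal size. In band 1, the lowest, 171 were called higher and 719 lower. In band 2 the counts were 268 and 516, and in band 3 they were 433 and 367. In band 4, the highest, 857 were called higher and 287 lower. The median log2 fold change of the called rises went from 1.27 in band 1 to 0.425 in band 4, and that of the called falls from -1.38 to -0.42. These medians cover called genes only. The median old sedentary SD of log2 CPM was 0.351 in band 1 and 0.151 in band 4, so a call in band 1 takes a larger change. Without old sedentary replicate 3 band 1 held 270 rises and 816 falls and band 4 held 1005 rises and 361 falls. The majority of falls in bands 1 and 2 and of rises in band 4 held under all 9 fits, whereas in band 3 falls outnumbered rises with total-count scaling (304 rises, 520 falls) and in a fit of the 8 old libraries alone (239 rises, 254 falls).

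**Figure D2:**
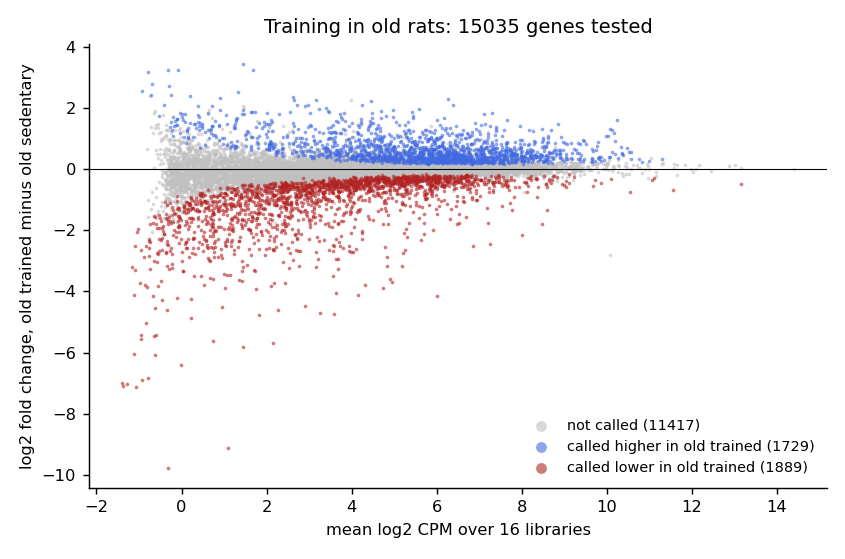
Log2 fold change (old trained minus old sedentary) against mean log2 CPM over the 16 libraries, 1 point per gene, colored by call at an adjusted p below 0.05. Called falls are most frequent at low levels and called rises at high levels. Called changes in either direction are larger at low levels.

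The genes called higher are abundant, and their sum took a large part of each library. They held 15.3%, 16.1%, 20.0% and 15.1% of the scaled counts in old sedentary replicates 1 to 4 and 23.1%, 23.3%, 22.3% and 23.3% in old trained replicates 1 to 4. The genes called lower held 12.0%, 12.6%, 9.22% and 12.5% in old sedentary and 7.15%, 7.3%, 7.24% and 7.61% in old trained libraries. These sums describe genes picked in the same libraries. In the young libraries, which had no part in either mean, the genes called higher in old trained rats held 19.1% to 22.3% of the counts in sedentary and 24.0% to 25.8% in trained rats. The genes called lower held 8.45% to 9.87% in young sedentary and 6.21% to 7.03% in young trained libraries. Old sedentary replicate 3 lay within the young sedentary range on both sums.

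A set of transcripts was at or near 0 in the hippocampus of old trained rats. In 32 of 15035 tested genes, every old trained library had at most 3 counts while the old sedentary mean was at least 1 CPM. The reverse was seen in 0 genes. The 0 rested on old sedentary replicate 3: without that library 13 genes showed the reverse, ENSRNOG00000012238 and ENSRNOG00000017539 among them, and 35 genes were near 0 in old trained rats. Leaving out replicate 1, 2 or 4 instead gave 0 reverse genes each time. The 32 genes had 5759 counts over the old sedentary libraries and 125 over the old trained libraries. ENSRNOG00000012478 alone, described below, held 1881 of the 5759. The 32 genes had a median old sedentary mean of 1.76 CPM. Their summed level was 130, 138, 44.8 and 190 CPM in old sedentary replicates 1 to 4 and 2.51, 2.83, 2.23 and 2.93 CPM in old trained replicates 1 to 4. Old sedentary replicate 3 was the lowest of its group, yet it had more than 3 counts in 29 of the 32 genes. Its values were part of the old sedentary mean used to choose them, so that count is partly built in. In young libraries, which the choice of these genes did not use, the sum was 27.4, 88.8, 21.4 and 80.8 CPM in sedentary replicates 1 to 4. It was 3.51, 27.8, 3.93 and 4.59 CPM in trained replicates 1 to 4, so young trained replicate 2 lay within the young sedentary range and the other 3 lay below it.

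Among called genes whose groups did not overlap and whose mean log2 CPM was 1 or more, the steepest fall was that of ENSRNOG00000012478. It stood at 34.3, 49.4, 14.1 and 66.1 CPM in old sedentary replicates 1 to 4, and at 0, 0.0808, 0.0719 and 0.077 CPM in old trained replicates 1 to 4. The groups lay far apart, and old sedentary replicate 3 was the lowest sedentary library. Over each group it had 1881 and 3 counts, a sedentary-to-trained ratio of 657 (95% exact binomial interval 225 to 3190, counting error only), with an edgeR adjusted p = 0.000446. Without old sedentary replicate 3 the ratio was 795 (interval 271 to 3860). It was also among the 3 genes still called with 1 surrogate variable. The gene stood at 4.59 to 27.5 CPM in young sedentary libraries and at 0 to 0.0878 CPM in young trained libraries. Its log2 fold change in young rats was -9.02 (SE 1.16, edgeR adjusted p = 0.000513). The difference between the ages was not past the threshold (edgeR interaction adjusted p = 0.986).

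The second steepest fall under the same rule was that of ENSRNOG00000057031. It stood at 25.6, 22.9, 5.86 and 22.9 CPM in old sedentary replicates 1 to 4, and at 0.239, 0.485, 0.288 and 0.308 CPM in old trained replicates 1 to 4. The groups did not overlap, and old sedentary replicate 3 was again the lowest of its group. The log2 fold change was -5.80 (SE 0.86, edgeR adjusted p = 0.000862), and -6.10 without old sedentary replicate 3. The ratio of sedentary to trained went from 57.9 (interval 35.5 to 102) to 70.7 (interval 43.3 to 124) without it. In young rats it ranged from 3.35 to 14.8 CPM in sedentary libraries, and in trained libraries it was at 0.263, 3.99, 0.268 and 0.467 CPM. The log2 fold change there was -2.79 (SE 0.72, edgeR adjusted p = 0.0182), and the difference between the ages was not past the threshold (edgeR interaction adjusted p = 0.337).

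Among called genes under the same limits on overlap and level, the largest rise was that of ENSRNOG00000012238. It stood at 12.1, 13.0, 11.0 and 14.3 CPM in old trained replicates 1 to 4, and at 0, 0.084, 4.58 and 0.0874 CPM in old sedentary replicates 1 to 4. The group means were 12.6 ± 1.38 CPM (SD, n = 4) and 1.19 ± 2.26 CPM (SD, n = 4). Of its 52 counts in the old sedentary group, 50 came from replicate 3. The log2 fold change was 3.43 (SE 0.91, edgeR adjusted p = 0.0139). Without replicate 3 the old sedentary group had 2 counts, and the trained-to-sedentary ratio went from 11.0 (95% exact binomial interval 8.28 to 14.9, counting error only) to 217 (interval 59.9 to 1800). With limma voom the log2 fold change was larger, at 5.93 (SE 2.22) with quality weights per library and 5.73 (SE 2.09) with weights per group, but with the wider error it was not called (adjusted p = 0.0612 and 0.0614).

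The second largest rise under these limits was that of ENSRNOG00000017539. It stood at 12.1, 10.3, 9.93 and 8.09 CPM in old trained replicates 1 to 4, and at 0.0896, 0, 4.03 and 0.175 CPM in old sedentary replicates 1 to 4. Replicate 3 held 44 of the 47 old sedentary counts. The log2 fold change was 3.25 (SE 0.76, edgeR adjusted p = 0.00726). Without replicate 3 the ratio of trained to sedentary went from 9.56 (interval 7.07 to 13.2) to 114 (interval 38.7 to 554). In young rats neither of the 2 rises was called: the log2 fold change was 0.80 for ENSRNOG00000012238 (SE 0.84, edgeR adjusted p = 0.531) and 1.15 for ENSRNOG00000017539 (SE 0.66, edgeR adjusted p = 0.234). Neither interaction passed (edgeR adjusted p = 0.381 and 0.385).

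The young sedentary libraries also differed among themselves in these 4 genes. Young sedentary replicate 2 stood at 0 CPM for ENSRNOG00000012238 and 0.547 CPM for ENSRNOG00000017539, against 2.8 to 6.03 and 3.42 to 4.88 CPM in the other 3. For the 2 falls, young sedentary replicates 2 and 4 were the high libraries, at 24.0 and 27.5 CPM for ENSRNOG00000012478, and replicates 1 and 3 the low ones, at 9.39 and 4.59 CPM.

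**Figure D3:**
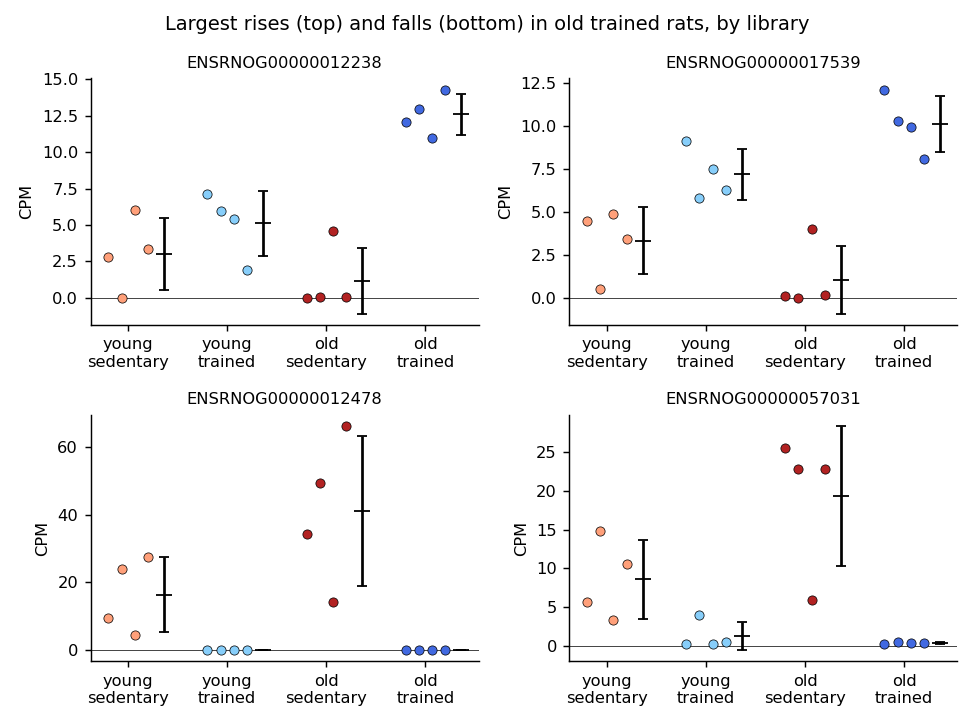
CPM of the 2 largest rises and the 2 steepest falls in each of the 16 libraries (points, replicates 1 to 4 from left to right within a group) with the group mean and SD (bars, n = 4). Genes were ranked among those called, with a mean log2 CPM of 1 or more and no overlap between the old groups. In every panel old sedentary replicate 3 is the old sedentary library closest to the old trained group.

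How much of the contrast rested on the spread of the old sedentary libraries was measured in 4 ways. The spread itself was taken first. The median SD of log2 CPM per gene was 0.198 in old sedentary, 0.149 in old trained, 0.143 in young sedentary and 0.151 in young trained rats. The old sedentary group had the highest SD of the 4 groups in 6677 genes (44.4%). Among the 3618 called genes its median SD was 0.284, against 0.159 in old trained rats, and without replicate 3 it was 0.207. Leaving out replicate 1, 2 or 4 in its place gave 0.299, 0.286 and 0.27. Over all 15035 genes the median SD without each library in turn lay between 0.18 and 0.189, so replicate 3 was not the one source of spread there.

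The overlap of the groups was counted next. The 4 old trained and 4 old sedentary values did not overlap in 3167 of the 15035 genes (21.1%), with 9.78% of genes wholly above and 11.3% wholly below. Among the called genes this held for 2578 (71.3%), a count that the call itself favors. In 2659 of the called genes (73.5%) the old sedentary library nearest to the old trained group was replicate 3, against 282, 245 and 432 for replicates 1, 2 and 4. The nearest library was not counted over all tested genes, and the call used these same values. With 1 library set aside fewer values are compared, so by construction non-overlap cannot fall. Setting aside replicate 1, 2 or 4 gave non-overlap in 24.4%, 24.2% and 24.2% of all tested genes and in 73.1%, 72.8% and 72.9% of the called genes. Setting aside replicate 3 gave 33.7% of all tested genes and 92.0% of the called genes.

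Libraries were then left out. Leaving out old sedentary replicate 1, 2 or 4 lowered the count to 2810, 2635 and 2791 genes, of which 2650, 2515 and 2646 were among the 3618. Leaving out replicate 3 raised it to 4510, 29.7% of 15174 tested, with 2187 higher and 2323 lower. That list kept 3537 of the 3618 genes and added 973. Leaving out old trained libraries gave 2664 to 3104 genes. In all 8 of these fits, 2082 of the 3618 genes (57.5%) were called, 984 higher and 1098 lower, and the median log2 change among them was 0.76 in size. With a single old sedentary library against the 4 old trained libraries, and the spread taken from the other groups, replicates 1, 2 and 4 gave 2776, 2911 and 2848 genes and replicate 3 gave 0 genes in edgeR. With replicate 3 alone, 1317 of 15557 genes had an unadjusted p below 0.05, and 3554 of the 3618 genes kept their sign, at a median size of 0.298 against 0.611 with all 4 libraries. The lone library is assumed to vary like the other groups.

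Finally, each library was placed among genes chosen without it. For each old library, genes were called with that library left out, and its value was placed on a scale from 0 at the old trained mean to 1 at the old sedentary mean of the libraries used. For old sedentary replicates 1, 2 and 4 the mean at 1 includes replicate 3, and for replicate 3 it does not, so these end points differ. Old sedentary replicates 1, 2 and 4 had median positions of 1.04, 1.13 and 1.13, and 87.7%, 90.2% and 88.0% of genes were past the midpoint. Replicate 3 had a median position of 0.383 over 4475 genes, with quartiles of 0.192 and 0.588, and 35.3% of genes were past the midpoint. It nevertheless lay on the sedentary side of the old trained mean in 90.9% of these genes. In 63.0% of them it lay outside the range of the old trained libraries, on the sedentary side. For old sedentary replicates 1, 2 and 4 this share was 91.3%, 93.4% and 93.0%. For old trained libraries it was 20.0% to 40.1%, each against the range of the other 3, which is a range of fewer libraries. Old trained libraries had median positions between 0.0176 and 0.132, and 52.8% to 67.9% of genes lay on the sedentary side of the mean of the other 3. By direction, replicate 3 lay at 0.311 for genes called higher and 0.462 for genes called lower. Replicate 3 thus lay between the groups, displaced toward the other sedentary libraries but short of the midpoint in most genes.

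**Figure D4:**
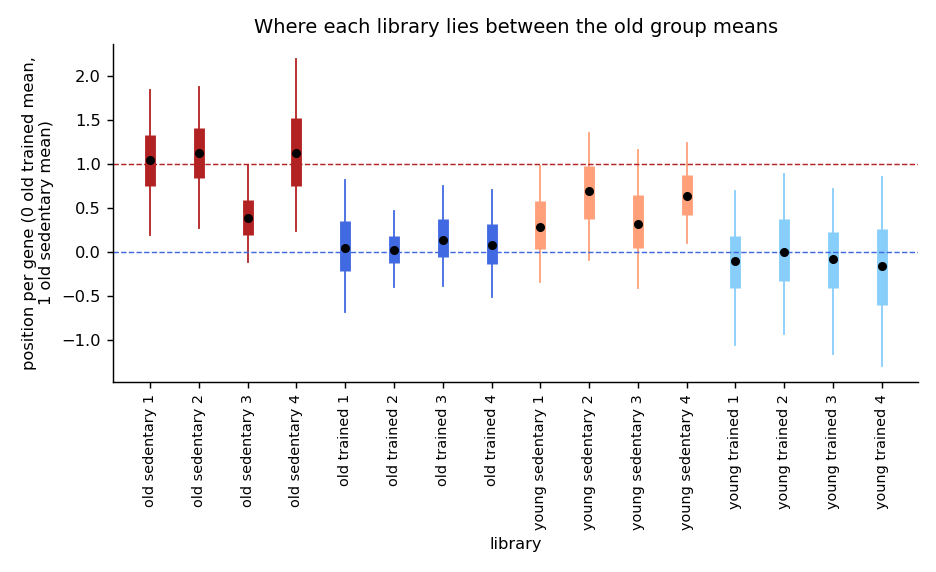
Position of each library between the old group means, per gene (0 at the old trained mean, 1 at the old sedentary mean); points are medians, thick bars quartiles and thin lines the 5th to 95th percentiles over genes. Old libraries are placed over genes called without them, between means that leave them out. Young libraries are placed over the genes called with all old libraries, between the full group means. The median of old sedentary replicate 3, at 0.383, falls among those of the young sedentary libraries, at 0.286 to 0.687, though the end points differ.

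Young libraries were placed on a similar scale over the 3618 called genes, with 1 at the mean of all 4 old sedentary libraries, replicate 3 included. These positions thus have other end points than those of the old libraries. Young sedentary replicates 1 to 4 had median positions of 0.286, 0.687, 0.318 and 0.633. Young trained replicates 1 to 4 had -0.102, 0.00408, -0.0757 and -0.161. The median positions of the young groups did not overlap, with the young sedentary libraries between the old groups and the young trained libraries near the old trained mean. The genes were chosen for a difference between the old means, which favors places between them for libraries outside that choice. A difference between young and old sedentary rats was not tested.

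The changes in old rats mostly had the same sign in young rats, whose means come from other libraries. Of the 1729 genes called higher in old trained rats, 1566 (90.6%) had a positive fold change in young rats, and of the 1889 called lower, 1737 (92.0%) a negative one, against 69.4% with the same sign in both ages over all 15035 genes. The spread of each gene came from all 16 libraries, so the ages are not fully independent. In young rats, where 17.1% of tested genes were called, the median log2 fold change was 0.26 for the genes called higher in old rats and -0.522 for those called lower. Sizes are not compared between the ages here, since the genes were chosen on old rats. Without old sedentary replicate 3 the shares with the same sign were 85.7% and 88.9%.

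Whether training differed between old and young rats was tested gene by gene as an interaction. With edgeR 0 of 15035 genes passed. The lowest adjusted p in its quasi-likelihood test was 0.254, and 2033 genes reached an unadjusted p below 0.05. limma voom called 0 with quality weights per library (2286 at an unadjusted p below 0.05) or per group (2227), and the DESeq2 Wald test called 44. Without old sedentary replicate 3, edgeR called 582 genes, 72.2% of them with a higher old-rat fold change. The number of genes passing thus depended on that library. With single old sedentary libraries in the fit, replicates 1, 2, 3 and 4 gave 340, 3, 0 and 674 genes.

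Which fit was used bore on the main count as well. A fit of the 8 old libraries alone called 2345 of 14621 genes (16%), 2288 of them among the 3618, with 990 higher and 1355 lower. limma voom with a separate spread for each group, which gave the old sedentary libraries a weight of 0.655 against 1.22 for old trained libraries, called 3181 genes. A surrogate variable is a factor estimated from the counts, meant to hold variation that the groups do not explain. With 1 surrogate variable, edgeR called 3 of 15035 genes (0.02%), all lower, and 651 had an unadjusted p below 0.05. The median size of the 3618 changes was then 0.202, against 0.611 without it, with a median standard error of 0.214. The factor thus took up part of the contrast between the old groups, and what that part stands for was not tested. Of the 3618 genes, 3075 kept their sign. In a fit added after the data were seen, 1 surrogate variable with old sedentary replicate 3 left out, edgeR called 4972 of 15174 genes (32.8%), 3566 of them among the 3618.

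**Figure D5:**
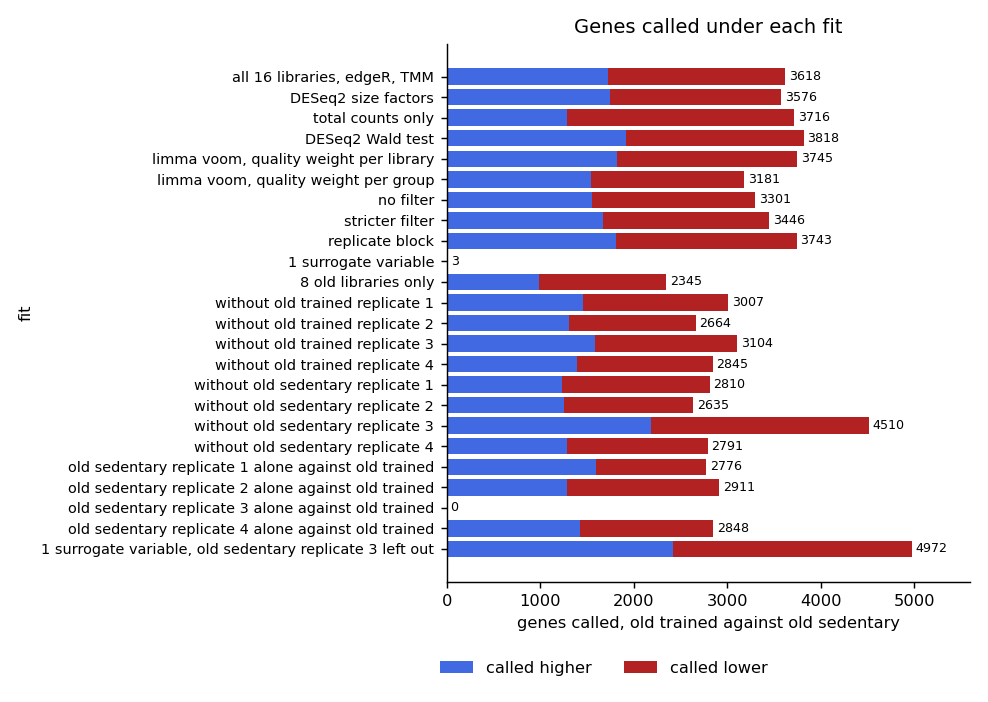
Number of genes called between old trained and old sedentary rats under each fit, split into higher and lower in old trained rats. The fits without old sedentary replicate 3 give the highest counts (4510, and 4972 with 1 surrogate variable), and that library alone against the old trained group (0) and 1 surrogate variable (3) give the lowest.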

How the data were processed

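Hippocampal poly(A) RNA was sequenced in 16 rats, 4 per group. The deposited values are raw counts per Ensembl gene ID, with no normalization. Tools listed in the submitters' processing notes are TopHat2 2.1.1, HTSeq, DESeq2, Trimmomatic, FastQC and SAMtools, with build Rnor_6.0. For the counting, a strand setting was not given in the sources used here, which leaves antisense, overlapping and near-identical genes uncertain. The labels' protocols put 10 libraries on a lane, but which library ran on which lane is likewise not given, so lane cannot be told apart from group. The labels' protocols speak of 5 libraries for each condition, of which 4 are analysed here.

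Counts were analysed in R 4.3.3 with edgeR 4.0.16: filterByExpr by group, TMM scaling, 1 mean per group over all 16 libraries (12 residual degrees of freedom), robust glmQLFit, glmQLFTest (2-sided) and Benjamini-Hochberg adjustment, with calls at adjusted p below 0.05. The standard error was the fold change over the square root of F. Log2 CPM used a prior count of 2. Bands of abundance are of the mean log2 CPM over all libraries. The model was tested on simulated data. Alternatives used DESeq2 1.42.0, limma 3.58.1 and sva 3.50.0. No pair of libraries within a group agreed within sampling noise (lowest chi-square per degree of freedom 4.65). Intervals cover counting error only.

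Genes and lists were chosen with earlier results of these data known. The rule for named genes took the largest changes among called genes whose mean log2 CPM was 1 or more, with no overlap between the old groups, limited to 2 rises and 2 falls by ID because no symbols were matched. The 43 gene lists and the cell type markers could not be counted for the same reason.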

Additional observations from a re-analysis of the deposited data

Results flagged for a closer look

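In 18 sets of 4 libraries, 6 had a library far from the other 3 by the ratio of its gap to the whole range. Chance gives about 1 in 20 such sets, and these sets share libraries. In 3 of the 6 the library was old sedentary replicate 3: it stood at 4.58 CPM for ENSRNOG00000012238 and 4.03 CPM for ENSRNOG00000017539, above the rest of its group, and at 5.86 CPM for ENSRNOG00000057031, below it. At a common depth, old sedentary replicate 4 had 18372 genes with a count, the fewest of its group, and old trained replicate 3 had 18303, the most of its group. Old trained replicate 1 was at 0 CPM for ENSRNOG00000012478, a difference of 1 count from the others.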

How the results depend on the processing

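The count of 3618 genes stayed within 1.5 times under DESeq2 size factors, total-count scaling, the DESeq2 Wald test, limma voom with either weight, no filter, a stricter filter and the replicate block, from 3181 to 3818. It was 2345 with the 8 old libraries alone, 3 with 1 surrogate variable and 0 with old sedentary replicate 3 alone. Leaving out 1 library gave 2635 to 4510 genes. For the interaction the count was 0 except with the DESeq2 Wald test (44), on leaving out 1 library (0 to 582, with 5 without young trained replicate 3) and, in fits added after the data were seen, with old sedentary replicates 1, 2 and 4 alone (340, 3 and 674) and with 1 surrogate variable and old sedentary replicate 3 left out (318). That last fit called 4972 genes for training in old rats. The causes were not tested. The replicate block called 3743 genes, and same-numbered old libraries deviated with correlations of -0.0344 to 0.00467. These correlations, taken in the old groups only, cannot settle whether same-numbered libraries share a pairing or a batch. The 4 named genes kept their direction in all 31 alternatives each, 124 values in all, and were not called in 9: all 4 with old sedentary replicate 3 alone, 3 with 1 surrogate variable and ENSRNOG00000012238 with both kinds of limma voom. The median old sedentary SD lay between 0.18 and 0.24 in all 8 alternatives in which it was taken. Gene lists were not run, since no ID matched a symbol.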
